A study of Mus musculus with 12 samples.

Results

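Luminal and myoepithelial cells of wild-type mouse mammary epithelium were compared through 6 of the 12 arrays of the study, 3 of CD24 high cells and 3 of CD24 low cells. The arrays were chosen by their titles: arrays 1, 9 and 13 hold the CD24 low fraction, myoepithelial by its label, and arrays 2, 10 and 14 the CD24 high fraction, luminal by its label. The donors were female mice, 10 to 14 weeks old, that carried an MMTV::Cre transgene, both wild-type Wnt4 alleles (Wnt4wt/wt) and the mT/mG reporter. Per the study's methods the MMTV::Cre line was line A and was kept on a C57BL/6JOlaHsd background. The labels name no treatment. The other 6 arrays hold the same fractions of mice with floxed Wnt4 (Wnt4fl/fl), which share the Cre and the reporter.

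Cre under the MMTV promoter acts in mammary epithelial cells, and mT/mG cells that have met Cre turn from red to green fluorescence. Lineage-depleted, GFP-positive cells were sorted by surface CD24, so each fraction was selected for cells in which the Cre had acted, whatever share of the epithelium that was. The purity of the sort was not tested. The source of the cells is given as glands in one place of the labels and as grafts in another, and this could not be settled. Neither source says how many animals went into an array. The arrays are bulk samples, in which fewer cells of a type and less RNA per cell cannot be told apart.

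The mammary duct is a tube with an inner and an outer layer. Luminal cells face the lumen, are sealed to each other by tight junctions, hold the receptors for estrogen and progesterone in a subset of cells and make milk in lactation. Myoepithelial cells wrap around them, contract under oxytocin to eject milk, and lie on the basement membrane that separates the epithelium from the stroma. Signals pass between the layers, because a hormone that acts on luminal cells reaches the outer layer through secreted ligands.

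Values are RMA values on the log2 scale from the table deposited by the authors, for 19938 genes with 1 probeset each. A difference is always the mean of the 3 CD24 high arrays minus the mean of the 3 CD24 low arrays, so a negative value means a higher signal in CD24 low cells, and a difference of 1 is 2-fold. A gene is said to pass when its two-sided limma p, adjusted by Benjamini and Hochberg over all 19938 genes, is below 0.05. Levels of different genes are not compared with each other, because each probeset has its own response. Across genes, arrays of 1 fraction correlated at 0.975 to 0.991 and arrays of different fractions at 0.920 to 0.933. Nothing in the labels ties an array to an animal or an experiment, so the p-values reflect only how far arrays of the same group spread, which may be technical. This spread was pooled over all arrays of the study, including those of mice with floxed Wnt4, and was moderated across genes by limma.

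The labelled cell types were checked against defining markers. All 10 myoepithelial defining markers passed as lower in CD24 high cells, with a median difference of -4.88, and none of them was absent from CD24 low cells. Of 11 measured luminal defining markers, 10 passed as higher in CD24 high cells and 0 as lower, with a median of 2.29. The exception was Gata3, described below with the other transcription factors. Cd24a, the gene of the antigen used to sort the cells, read 11.50, 11.11 and 11.35 in CD24 low cells (arrays 1, 9 and 13 in this order, as in all such lists below) and 11.76, 11.88 and 11.79 in CD24 high cells (arrays 2, 10 and 14). Every CD24 high array lay above every CD24 low array for Cd24a, but the difference was small at 0.49 (SE 0.16) and did not pass (adjusted p = 0.06). The Cd24a mRNA of CD24 low cells thus gave a clear signal of its own, at 11.32 on average.

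Over all genes, 3218 passed, which is 16.1% of those tested. In CD24 high cells 1581 were higher (7.93%) and 1637 were lower (8.21%), and the 3 arrays of one fraction lay apart from the 3 of the other for 6539 genes (32.8%). Without array 13 the counts were 1044 higher and 1238 lower. The median difference over all 19938 genes was 0.02. The 2 directions were nearly equal in number but not in size. At a difference of at least 2-fold 722 genes stood on the CD24 high side and 1041 on the CD24 low side, and at 4-fold 198 and 379. At 8-fold the counts were 51 and 151, at 16-fold 5 and 50, and at 32-fold 0 and 13. The genes of CD24 low cells thus outnumbered those of CD24 high cells by 1.04 to 1 among all that passed and by 10 to 1 at 16-fold. The near balance over all that passed turned with the scaling: median centring gave 1870 higher and 1483 lower genes, and a second quantile normalisation 1779 and 1661.

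**Figure D1:**
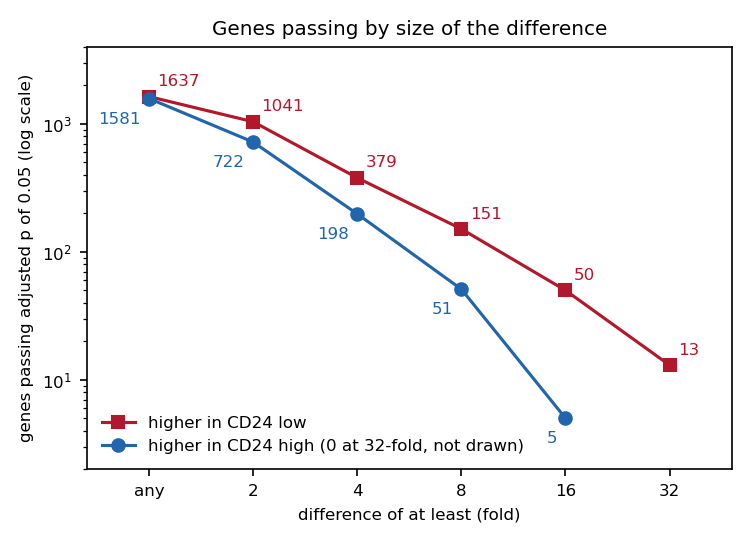
Number of genes passing an adjusted p of 0.05 (vertical axis, log scale) at or above each size of difference (horizontal axis, fold), for genes higher in either fraction of wild type. The lines start together at 1637 and 1581 genes and separate with size, to 50 and 5 genes at 16-fold.

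A fold rests on how dim the lower fraction is, and the arrays measure no zero. As a yardstick, 1194 olfactory and vomeronasal receptor genes, which are not known to be used in mammary epithelium, had their 95th percentile at 5.04 in the CD24 low and 5.03 in the CD24 high fraction. Of the genes higher in CD24 high cells, 171 of 1581 (10.8%) had a CD24 low mean at or under this bound. Of those higher in CD24 low cells, 281 of 1637 (17.2%) had such a CD24 high mean. For these genes the fold is read against a signal within the range of the receptor genes, and they are called dim in the lower fraction below.

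The keratins are the intermediate filaments that name the 2 layers, and 9 of 14 listed ones passed on the side of their layer. Over all genes 7.93% were higher and 8.21% lower in CD24 high cells. Of all 52 measured genes with the stem Krt, 6 passed as higher and 5 as lower (21.2%), with a median of 0.01. Krt14, a keratin of the basal layer, read 11.98, 11.81 and 11.70 in CD24 low cells and 7.67, 6.87 and 7.32 in CD24 high cells. No array of one fraction came near those of the other, and the difference was -4.54 (SE 0.26, adjusted p = 8.39e-07, 23.3-fold). Krt5, the partner of Krt14 in basal filaments, differed by -5.87 (SE 0.21). Of 7 basal keratins 4 passed as lower in CD24 high cells, with a list median of -3.21. Krt17 was lower by 4.76 (SE 0.51) and Krt15 by 3.21 (SE 0.44), and Krt15 spread more within CD24 low cells (10.44, 9.07 and 9.59) than within CD24 high cells (6.42, 6.44 and 6.62). Krt6a, a keratin of renewing and stressed epithelium, went the other way. It read 6.82, 5.75 and 6.25 in CD24 low cells and 8.92, 7.96 and 8.95 in CD24 high cells, a difference of 2.34 (SE 0.48, adjusted p = 0.0062). Krt6a and Krt6b are near-identical copies and a probeset can take signal from both, so this value is uncertain as to the copy. Krt6b (-0.03) and Krt16 (0.50) did not pass.

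The luminal keratins were less one-sided than the basal ones. Krt8, which pairs with Krt18 in simple epithelia, read 12.52, 12.67 and 12.70 in CD24 high cells and still 11.17, 11.07 and 11.14 in CD24 low cells. The fractions did not overlap, but the difference was only 1.51 (SE 0.21, adjusted p = 0.000589, 2.84-fold). Krt18 differed by 1.92 and Krt19 by 2.71, and Krt7 had the widest difference among luminal keratins at 3.34 (SE 0.27, adjusted p = 9.73e-06). Krt20 (-0.17) and Krt23 (-0.57) did not pass and overlapped. In all 5 of 7 passed, all higher in CD24 high cells, against 7.93% of all genes, with a median of 1.51. The fifth, Krt80 (1.15), did not pass without array 9, 10, 13 or 14 (adjusted p 0.0543 to 0.0911).

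The contractile apparatus was the most uniform list. Of 26 measured members 23 passed, all lower in CD24 high cells, against 8.21% of all genes, and their median difference was -2.43. Acta2, smooth muscle actin and the usual stain for myoepithelium, read 12.69, 12.61 and 12.48 in CD24 low cells and 7.82, 7.32 and 6.99 in CD24 high cells. Its fractions were 37.2-fold apart (difference -5.22, SE 0.49, adjusted p = 3.11e-05), and the CD24 high arrays spread over 0.83 while the CD24 low arrays spread over 0.21. Myl9, the regulatory light chain of smooth muscle myosin, differed by -5.41 (SE 0.31) and Tagln, an actin-bundling protein, by -4.15 (SE 0.27). The differences of the 23 ran from -0.49 for Csrp1 to -5.97 for Cnn1 (calponin), both actin-associated. The proteins that smooth muscle shares with all cells stood at the small end: Tpm1 at -0.90, Tln1 (talin) at -1.05 and Actn1 (alpha-actinin) at -1.22. Csrp1 lost its call when any 1 of the 6 arrays was left out (adjusted p 0.096 to 0.115). The members that did not pass on all arrays were Myl6 (-0.57), Vcl (-0.52) and Ldb3 (0.27).

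Smooth muscle genes are known to be driven through the CArG box, the site bound by serum response factor. The promoters of the list, taken as 250 bases before to 50 bases after each start site in RefSeq, were therefore searched for it on both strands. A CArG box stood in 5 of the 23 members with a promoter in the table (21.7%), against 254 of 15614 measured genes (1.63%). Among genes that passed, it stood in 28 of 1241 lower in CD24 high cells (2.26%) and in 15 of 1238 higher (1.21%). The stretches around these boxes are printed here because they cut across the result above: Myl9 and Cnn2 passed, and Myl6, Vcl and Ldb3 are the 3 that did not. They are given 5′ to 3′ on the strand of the gene (build GRCm38.p6), with the box in capitals.
Myl9 (chr2:156775278-156775337, plus strand): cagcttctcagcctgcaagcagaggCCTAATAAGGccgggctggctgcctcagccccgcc
Cnn2 (chr10:79988519-79988578, plus strand): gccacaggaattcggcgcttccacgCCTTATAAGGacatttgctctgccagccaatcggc
Myl6 (chr10:128493025-128493084, minus strand): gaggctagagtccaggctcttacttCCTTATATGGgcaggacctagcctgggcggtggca
Vcl (chr14:20929148-20929205, plus strand): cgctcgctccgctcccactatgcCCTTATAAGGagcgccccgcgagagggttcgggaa
Ldb3 (chr14:34588682-34588741, minus strand): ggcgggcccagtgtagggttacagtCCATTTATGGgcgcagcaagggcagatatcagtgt
Counted from the start site, the first base of the box lay at -161 in Myl9, -56 in Cnn2, -50 in Myl6 and -227 in Vcl. In Ldb3 it lay at -109 and -35 from its 2 listed start sites. Cnn2 and Vcl hold the same box of 10 bases, with differences of -2.18 (adjusted p = 0.000195) and -0.52 (adjusted p = 0.173). A match is a description of these letters, not of a bound site. Acta2 and Cnn1 had no match in this window, and Myh11 and Tagln are not in the promoter table.

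Genes that control contraction followed in part. Of 23 measured members 11 passed, all lower in CD24 high cells, against 8.21% of all genes, with a median of -0.71. Oxtr, the oxytocin receptor through which milk is ejected, read 9.35, 9.33 and 9.36 in CD24 low cells and 5.40, 5.82 and 5.41 in CD24 high cells. Its 3 CD24 low arrays lay within 0.03 of each other, and the difference of -3.80 (SE 0.24, adjusted p = 1.95e-06) was 14.0-fold. Kcnmb1, the smooth muscle subunit of the calcium-activated potassium channel, differed by -3.86 (SE 0.27) and was dim in CD24 high cells. Prkg1, the kinase that relays cyclic GMP, and Cacna1c, the pore of the L-type calcium channel, differed by -2.54 and -2.30. The cyclic GMP-forming subunits Gucy1a1 (-1.90) and Gucy1b1 (-1.69) passed with them. Of the general factors, Rock1 (0.16), Srf (0.12) and Mrtfb (0.09) did not pass, and Mrtfa (-0.71, adjusted p = 0.0223) did. Myocd, the coactivator of serum response factor in smooth muscle, was at 4.33 in CD24 low cells and did not pass (-0.35). Gucy1a1 lost its call without array 2, 9, 10, 13 or 14 (adjusted p 0.0613 to 0.118) and Mrtfa without array 1, 9, 10, 13 or 14 (adjusted p 0.059 to 0.092). The count of 11 was 6 without array 9 or array 10 and 7 without array 13 or array 14.

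Channels of excitable cells are shown because Scn7a, a sodium channel gene, had the largest difference of all genes that passed. It read 10.85, 11.25 and 10.82 in CD24 low cells and 4.84, 4.57 and 3.94 in CD24 high cells, where it was dim. Of 41 measured channel genes 10 passed as lower and 5 as higher in CD24 high cells, against 8.21% and 7.93% of all genes, with a median of -0.12. Cacna2d1, an auxiliary calcium channel subunit, read 8.88, 9.09 and 8.49 against 3.96, 4.04 and 4.10, a difference of -4.78 (SE 0.19, adjusted p = 1.15e-07). Kcnq5, a potassium channel pore, differed by -3.26 (SE 0.14), and both were dim in CD24 high cells. Piezo2, a mechanosensitive channel, read 5.28, 5.50 and 5.50 in CD24 low cells and 9.06, 7.44 and 7.99 in CD24 high cells, so that its lowest CD24 high array still stood above all 3 CD24 low arrays (2.74, SE 0.40, adjusted p = 0.000762). Piezo1 differed by 1.44 (SE 0.33, adjusted p = 0.011) and Trpc6, a calcium-permeable cation channel, by 2.06. Trpv4, another calcium-permeable channel, was lower in CD24 high cells by 2.89. Piezo1 lost its call without array 10 (adjusted p = 0.0507), as did the potassium channel gene Kcnd2 (1.37), without array 1 or 9 (adjusted p 0.0977 to 0.112). With arrays 9 to 16 only, 3 members passed as higher.

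Transcription factors of the basal layer passed in 17 of 28 cases, with a median of -1.16. In CD24 high cells 16 were lower and 1 higher, against 8.21% and 7.93% of all genes. Trp63, the p53 relative that basal epithelium needs, read 10.30, 10.33 and 10.30 in CD24 low cells and 6.21, 6.04 and 6.17 in CD24 high cells. Both groups were tight, with ranges of 0.03 and 0.17, and the difference was -4.17 (SE 0.29, adjusted p = 3.03e-06). Irx4, a homeobox gene, had the widest difference of the list at -4.70 (SE 0.17, adjusted p = 6.83e-08, 26.0-fold), from 9.59, 9.82 and 10.01 to 5.31, 5.04 and 4.97. Snai2 (Slug) differed by -3.97 (SE 0.26). Of other factors known from the epithelial to mesenchymal transition, Snai1, Zeb1 and Zeb2 had differences of -1.38, -1.46 and -1.19 that did not pass (adjusted p = 0.0625, 0.0905 and 0.363). Twist1 passed as lower in CD24 high cells, but not without array 2, 9, 10, 13 or 14 (adjusted p 0.054 to 0.159). Osr1 (-3.27), Prrx1 (-3.24) and Id4 (-3.22), regulators better known from limb, kidney or brain development, were lower in CD24 high cells as well. Meis1, a homeobox gene, was the 1 member higher there (0.67, adjusted p = 0.0347), and its call ended without array 1, 2, 10 or 13 (adjusted p 0.0609 to 0.128).

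Luminal transcription factors were more divided. Of 34 measured, 15 passed as higher and 4 as lower in CD24 high cells, against 7.93% and 8.21% of all genes. Their median was 0.52. Ehf, an epithelial ETS factor, read 7.23, 6.55 and 6.14 in CD24 low cells and 10.64, 11.03 and 10.91 in CD24 high cells, and Elf5, the ETS factor of the alveolar lineage, read 5.52, 5.55 and 4.96 and 8.50, 9.95 and 9.49. Both had all CD24 high arrays above all CD24 low arrays, with array 2 the lowest of the CD24 high arrays. Grhl1, a grainyhead factor of epithelial barriers, differed by 2.75 (SE 0.25), while its relatives Grhl2 and Grhl3 did not pass (0.27 and 0.51). Esr1, the estrogen receptor gene, read 6.11, 6.64 and 6.31 and 8.80, 8.27 and 8.87. Its coactivator Cited1 differed by 2.79 (SE 0.49), and its CD24 low arrays ranged over 1.88 with array 9 the highest.

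Gata3, a factor that luminal cells need, read 10.22, 10.20 and 10.26 in CD24 low cells and 10.29, 10.31 and 10.51 in CD24 high cells. The CD24 high arrays lay above the CD24 low arrays, but by so little that the difference of 0.14 (SE 0.20, adjusted p = 0.76) did not pass. In the other direction stood Tfap2c (-1.55, SE 0.17), Cebpb (-1.35, SE 0.21), Runx1 (-1.08, SE 0.13, adjusted p = 0.000154) and Sox4 (-0.89, adjusted p = 0.0395). These are known regulators of mammary epithelium that the list assigned to luminal cells, and all 4 had every CD24 low array above every CD24 high array. Sox4 did not pass without array 1, 10, 13 or 14 (adjusted p 0.0958 to 0.138). Stat5a and Stat5b, which relay prolactin, did not pass (0.30 and 0.60).

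**Figure D2:**
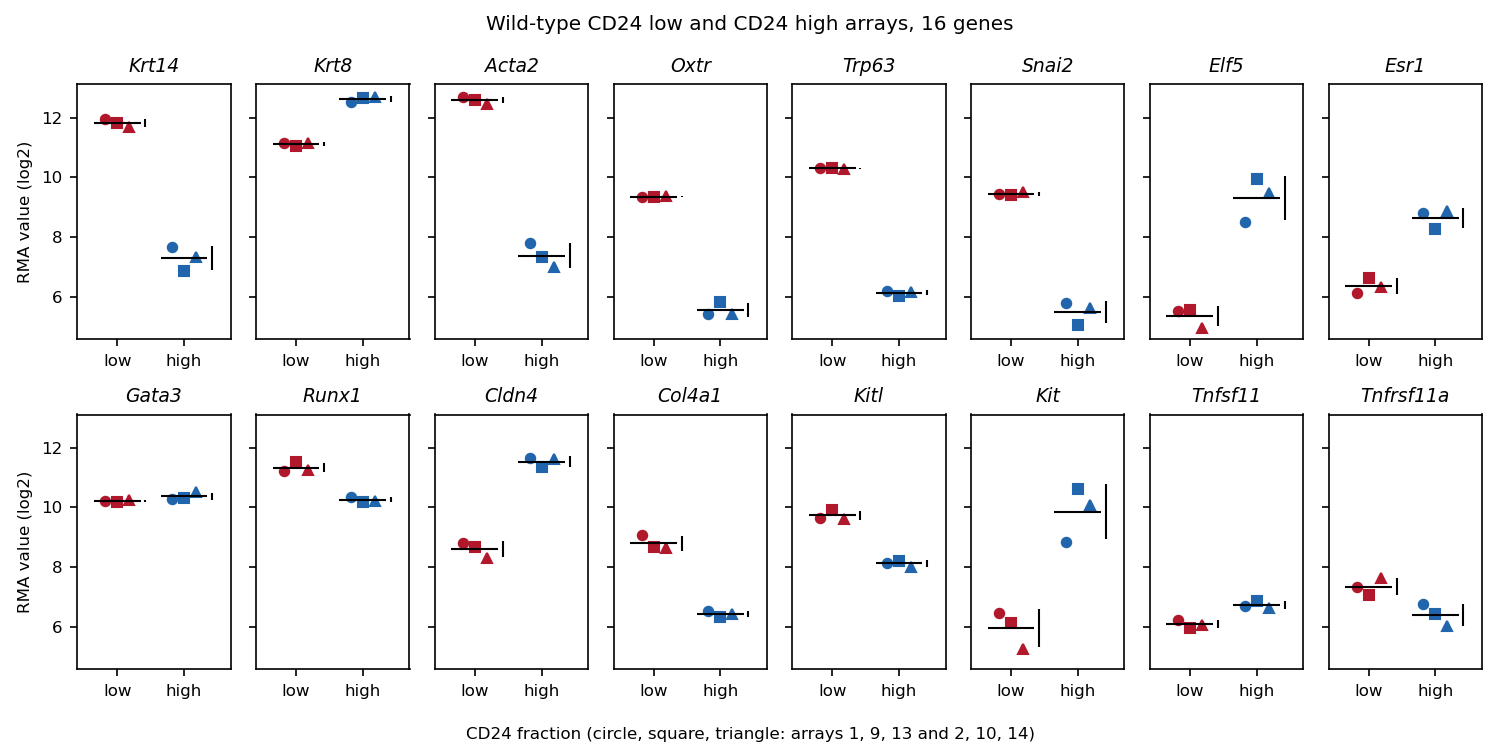
RMA values (log2, vertical axis) of 16 genes on the 3 CD24 low arrays (red) and 3 CD24 high arrays (blue) of wild type; circle, square and triangle stand for arrays 1, 9, 13 and 2, 10, 14, the horizontal line is the group mean and the vertical bar its SD to either side. Gata3 stands at means of 10.23 and 10.37, Runx1 is lower in CD24 high cells, and the Kit and Elf5 points of array 2 lie below those of arrays 10 and 14.

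Epithelial junction and polarity genes passed in 24 of 32 cases, 23 of them higher in CD24 high cells, where 7.93% of all genes were. Their median difference was 1.32. Marveld2 (tricellulin), which seals the points where 3 cells meet, read 6.43, 6.37 and 6.04 in CD24 low cells and 9.60, 9.54 and 9.36 in CD24 high cells (3.21, SE 0.20, adjusted p = 1.95e-06). Ocln (occludin) differed by 3.01 and the scaffold gene Cgn (cingulin) by 2.35. Among the claudins, which form the tight junction strands, Cldn7, Cldn8, Cldn4, Cldn3, Cldn1, Cldn10 and Cldn23 were all higher in CD24 high cells, by 1.77 to 3.17. Cldn4 read 8.80, 8.69 and 8.29 and 11.66, 11.34 and 11.61, so CD24 low cells also gave a clear signal for it. Cldn8 was dim in CD24 low cells, and Cldn1 lost its call without array 9, 10, 13 or 14 (adjusted p 0.0704 to 0.0965).

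The junction genes shared by both layers differed less. Cdh1 (E-cadherin) differed by 1.27 and Epcam, an adhesion protein of epithelia, by 1.09 (SE 0.17, adjusted p = 0.000948). Cdh1 lost its call without array 2, 9, 10, 13 or 14 (adjusted p 0.0701 to 0.119). Tjp1 (0.27), F11r (-0.02) and Pard3 (-0.11), which belong to junctions of many cell types, did not pass. The membrane serine proteases Prss8 (1.81) and St14 (1.34) and their inhibitor Spint1 (1.77) were higher in CD24 high cells together, though St14 not without array 9 (adjusted p = 0.0501). Pard6g was the 1 member lower there: it read 7.36, 7.20 and 7.40 against 5.24, 5.40 and 5.04 (-2.09, SE 0.33), while Pard6b, the other polarity gene of this family, stood at 0.69 and did not pass. The classical cadherin of the outer layer, Cdh3 (P-cadherin), differed by -5.39 (SE 0.30), and the desmosome gene Pkp2 (plakophilin) went the other way by 3.76 (SE 0.23, adjusted p = 1.2e-06).

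Basement membrane and its receptors came from the CD24 low side. Of 38 measured genes 24 passed, all lower in CD24 high cells, against 8.21% of all genes, with a median of -1.07. Col17a1, the transmembrane collagen of hemidesmosomes, read 9.93, 9.80 and 9.72 in CD24 low cells and 6.35, 5.72 and 5.98 in CD24 high cells (-3.80, SE 0.33). Hspg2 (perlecan), Lama1 and Lamb1 differed by -3.23, -2.86 and -2.77. Col4a1, the collagen of the membrane sheet, read 9.07, 8.68 and 8.63 and 6.53, 6.32 and 6.41 (-2.37, SE 0.43, adjusted p = 0.00306). The epithelial receptor chains had smaller differences and a high signal in both fractions: Itgb4 read 9.26, 9.16 and 9.29 and 8.14, 8.11 and 8.26 (-1.07), and Itga6 and Itgb1 differed by -0.89 and -0.63. Itga6 and Itgb1 lost their calls without array 1, 9, 10 or 14 (adjusted p 0.0586 to 0.0771) and without array 1, 2, 9, 10 or 13 (adjusted p 0.0599 to 0.111). Lama5, the broadest laminin alpha chain of epithelia, did not pass (-0.25, adjusted p = 0.795).

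The interstitial matrix, known mainly from fibroblasts, followed the same side. Of 32 measured genes 22 passed, all lower in CD24 high cells, against 8.21% of all genes, with a median difference of -1.79. Sparc, a collagen-binding glycoprotein, read 12.32, 12.24 and 12.13 in CD24 low cells and 7.52, 8.49 and 7.27 in CD24 high cells (-4.47, SE 0.41, 22.2-fold). Bgn (biglycan), a small proteoglycan, differed by -5.36 and Col14a1, a fibril-associated collagen, by -4.96. The main fibril collagens of fibroblasts behaved differently. Col1a1 read 6.62, 8.49 and 6.90 in CD24 low cells and 6.44, 6.34 and 6.40 in CD24 high cells, so that array 9 alone stood above 7, and it did not pass (-0.94, adjusted p = 0.307). Col1a2 (-1.24) and Col3a1 (-1.0) had the same array 9 apart and did not pass, and Lum read 3.33, 9.07 and 4.38 and 3.52, 4.08 and 3.43. Dcn read 9.92, 12.11 and 9.38 and 9.21, 11.33 and 9.77 and overlapped between the fractions.

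Marker lists of several other cell types also averaged higher on the CD24 low arrays. Among these arrays the endothelial list was highest on array 13. The fibroblast, pericyte and immune lists were highest on array 9, as was the interstitial matrix list. Endothelial markers averaged 6.65, 8.02 and 8.83 on the CD24 low arrays and 5.49, 6.14 and 5.65 on the CD24 high arrays, and 6 of 18 passed as lower in CD24 high cells. Cdh5, the endothelial cadherin, read 7.52, 9.55 and 9.87 and 5.01, 7.0 and 5.57. Its call ended without array 2, 9, 13 or 14 (adjusted p 0.101 to 0.132), and the count of 6 was 0 without any 1 of these 4 arrays, 3 without array 10 and 13 without array 1. It was 14 with the runs of title numbers as a block and 18 with arrays 9 to 16 only. Fibroblast markers averaged 6.35, 8.72 and 6.41 on CD24 low and 5.76, 5.88 and 5.70 on CD24 high arrays, with 4 of 16 passing (Serpinf1, Pdgfrl, Fbln1 and Gsn, the last not without array 9 or 10 (adjusted p 0.0581 to 0.0678)). Pericyte markers averaged 5.97, 7.04 and 6.25 and 5.55, 5.69 and 5.56 (2 of 12 lower, and 1 without array 2, 9 or 10) and immune markers 5.09, 6.22 and 5.41 and 4.86, 4.92 and 4.80 (3 of 22 lower, and 1 without array 2, 9, 13 or 14), where 8.21% of all genes were lower.

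Interstitial matrix genes averaged 8.42, 9.26 and 8.51 on CD24 low and 6.45, 6.61 and 6.33 on CD24 high arrays. Without array 9, 18 of the 32 matrix genes and 18 of the 38 basement membrane genes passed as lower. Of defining fibroblast and immune markers, Dpt read 4.09, 9.47 and 5.24 and Ptprc 4.57, 5.36 and 4.74 on the CD24 low arrays, and the part of other cells in the matrix values was not tested. Cd74, a chaperone of MHC class II, was the immune gene with the smallest p and read 8.46, 8.98 and 8.56 in CD24 low cells and 5.26, 5.54 and 5.18 in CD24 high cells, evenly over the arrays (-3.34, SE 0.23, adjusted p = 3.58e-06). H2-Aa and H2-Ab1, the class II chains, differed by -2.26 and -2.16 with array 9 highest. H2-Aa lost its call without array 2, 9, 10, 13 or 14 (adjusted p 0.0783 to 0.136) and H2-Ab1 without array 2, 9, 13 or 14 (adjusted p 0.0586 to 0.109).

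Skeletal muscle markers averaged 6.30, 5.19 and 5.21 on CD24 low and 5.27, 5.09 and 5.15 on CD24 high arrays, with array 1 alone raised. Acta1, skeletal actin, read 10.28, 7.08 and 6.84 in CD24 low cells. With arrays 9 to 16 only, a set that leaves out array 1 and was chosen after the values were seen, 3395 genes passed, 1659 higher and 1736 lower. Of 20 skeletal muscle genes 1 passed, Mb (myoglobin), higher in CD24 high cells (0.89) but not without array 9, 10, 13 or 14 (adjusted p 0.104 to 0.148). Adipocyte genes passed in 1 of 12 cases (Cidea, 1.25, higher), erythroid genes in 0 of 3 and Schwann cell genes in 3 of 8 (Erbb3 and Mal higher, Pmp22 lower). Over all genes 7.93% were higher and 8.21% lower, and the skeletal muscle (5%) and adipocyte (8.33%) shares were near or under these. Cidea was dim in CD24 low cells and did not pass at a threshold of 0.01. The myoepithelial defining markers averaged 11.13, 11.08 and 10.97 on CD24 low and 6.47, 6.27 and 6.10 on CD24 high arrays.

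**Figure D3:**
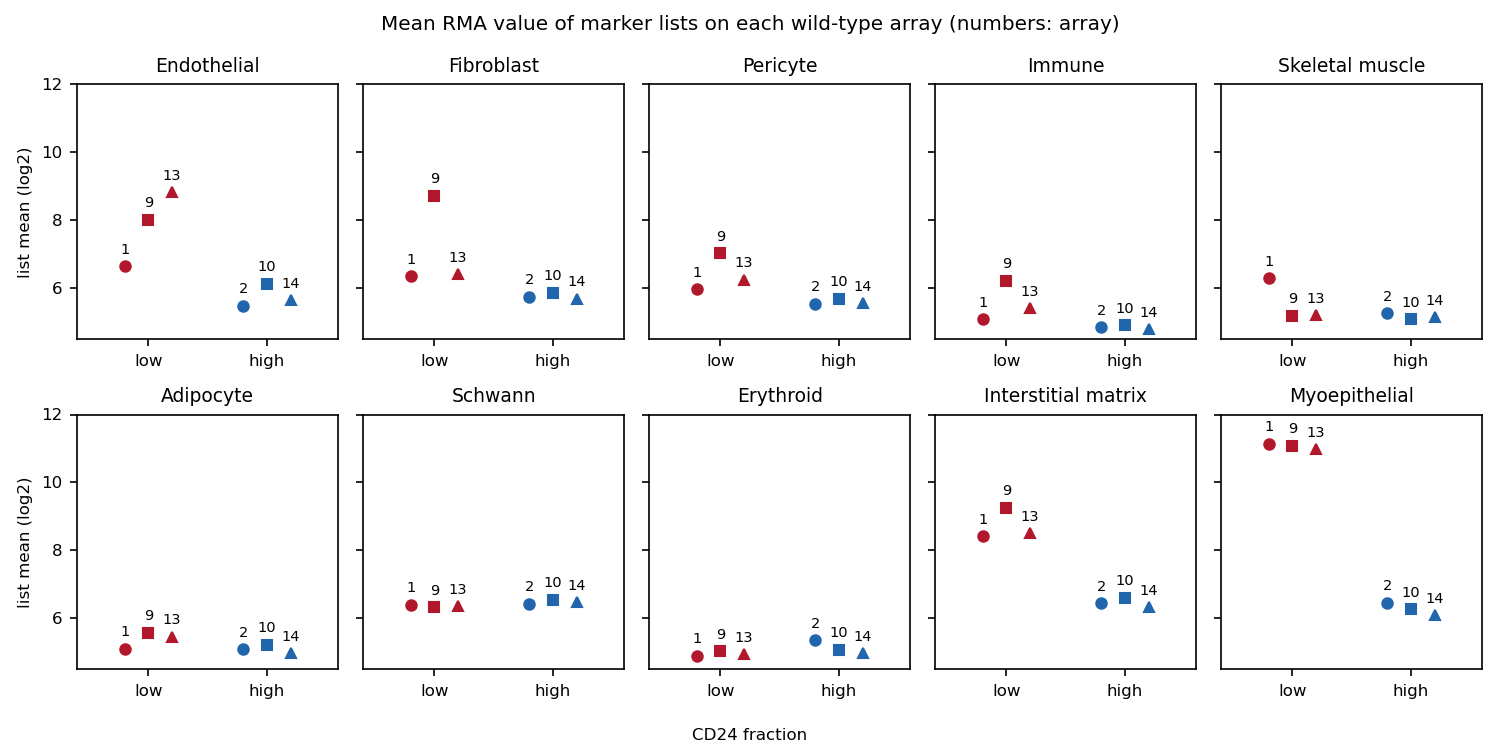
Mean RMA value (log2, vertical axis) of 10 gene lists on each wild-type array, CD24 low in red and CD24 high in blue, with the array number above each point. Endothelial markers run from 6.65 to 8.83 over the CD24 low arrays and fibroblast markers stand high on array 9 only (8.72), while the myoepithelial list lies between 10.97 and 11.13.

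Hormone-sensing genes were split between the layers. Of 22 measured members 7 passed as higher and 5 as lower in CD24 high cells, against 7.93% and 8.21% of all genes. Their median was 0.17. Pgr, the progesterone receptor gene, read 6.65, 6.72 and 6.54 in CD24 low cells and 8.69, 8.70 and 9.32 in CD24 high cells. Prom1, which marks hormone receptor-positive luminal cells, differed by 2.68 (SE 0.44, adjusted p = 0.00167). Wnt4 itself, which acts downstream of the progesterone receptor, read 6.49, 6.45 and 6.63 and 7.42, 7.92 and 7.62 (1.13, adjusted p = 0.00204). Among members lower in CD24 high cells, the chemokine gene Cxcl12 had the largest difference (-4.59, SE 0.26). Some other nuclear, growth factor and cytokine receptors lay on this side too: Vdr, the vitamin D receptor (-1.08, SE 0.20), Igf1r (-0.99, adjusted p = 0.0266) and Il4ra (-1.82, SE 0.17, adjusted p = 3.57e-05). Igf1r lost its call without array 1, 2, 9 or 14 (adjusted p 0.0605 to 0.107), and the count of 5 was then 3. The glucocorticoid receptor gene Nr3c1 (-0.44) and the thyroid receptor genes Thra (0.17) and Thrb (0.12) did not pass.

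Ligands and receptors of paracrine signals were both richer on the CD24 low side. Of 58 measured ligands 21 passed as lower and 8 as higher in CD24 high cells (median -0.68). Of 70 receptors 29 passed as lower and 6 as higher (median -0.74). Over all genes 8.21% were lower and 7.93% higher, and the 6 higher receptors are near that share. The chemokine genes Cxcl12 (9.50, 9.73 and 9.87 against 4.98, 5.46 and 4.87) and Cxcl14 (11.73, 11.70 and 11.79 against 6.88, 6.18 and 5.86) had the largest differences of the listed ligands. All of their CD24 low arrays stood at least 4 above the CD24 high arrays. The Notch ligands Dll1, Jag2 and Jag1 differed by -3.91, -3.33 and -2.17, while the receptors Notch1 (0.73), Notch2 (0.13) and Notch3 (1.30) did not pass. Among the 6 receptors higher in CD24 high cells were the neuregulin receptors Erbb3 (2.95, SE 0.22, adjusted p = 5.3e-06) and Erbb4 (2.05, SE 0.22). Tgfbr3 (betaglycan), Fzd7 and Ackr3 were lower there by 3.74, 2.84 and 2.57. Lif, a cytokine of the interleukin 6 family, read 7.83, 7.81 and 7.38 in CD24 low cells and 9.20, 10.56 and 10.56 in CD24 high cells, and Il6 read 8.57, 10.04 and 9.23 and 4.42, 7.29 and 4.76. The pair went opposite ways (2.44 and -3.79), and Il6 ranged over 2.87 in CD24 high cells, with array 10 the highest. Il6 did not pass without array 2, 9, 13 or 14 (adjusted p 0.0697 to 0.0922).

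To see where both ends of a signal lie, 20 ligand and receptor pairs of textbook knowledge were set side by side. The pairs were chosen after the values were seen and support nothing by their number. Both partners passed in 12 pairs, in opposite fractions for 8 and in the same fraction for 4. Kitl (stem cell factor) read 9.66, 9.92 and 9.61 in CD24 low cells and 8.14, 8.22 and 8.01 in CD24 high cells, and its receptor Kit read 6.47, 6.13 and 5.25 and 8.85, 10.63 and 10.10. The ligand was thus higher in every CD24 low array and the receptor in every CD24 high array (-1.61 and 3.91). Hgf read 9.19, 9.09 and 8.63 and 4.20, 4.15 and 3.98, dim in CD24 high cells, and its receptor Met read 7.88, 7.61 and 7.57 and 9.09, 9.77 and 9.45 (-4.86 and 1.75). Bmp7 (-3.46) and Bmpr1b (1.24) were laid out in the same way, as were Il6 and Il6ra (0.89), though Il6ra not without array 2, 9, 10, 13 or 14 (adjusted p 0.0572 to 0.173).

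In the reverse direction, the ligand was luminal and the receptor basal. Tnfsf11 (RANKL), the progesterone target, read 6.21, 5.96 and 6.07 in CD24 low cells and 6.70, 6.88 and 6.63 in CD24 high cells, and its receptor Tnfrsf11a (RANK) read 7.32, 7.07 and 7.64 and 6.76, 6.42 and 6.02. The differences were small, at 0.66 (SE 0.17, adjusted p = 0.0224) and -0.94 (SE 0.21, adjusted p = 0.00883), and Tnfsf11 lost its call without array 9, 10 or 13 (adjusted p 0.0678 to 0.0868). Btc (betacellulin), whose other receptor Erbb4 was higher in CD24 high cells with it, and Egfr differed by 1.79 and -1.21, Ntn1 (netrin) and Neo1 by 1.32 and -0.88, and Lif and Lifr by 2.44 and -1.48. Egfr lost its call without array 1, 2 or 9 (adjusted p 0.0587 to 0.0628). Cxcl12 and Ackr3 were both higher in CD24 low cells, while the other receptor of Cxcl12, Cxcr4, did not pass (0.18). Nrg1, a ligand of Erbb3 and Erbb4, overlapped between the fractions (-1.02, adjusted p = 0.27), with array 1 the highest at 7.58.

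**Figure D4:**
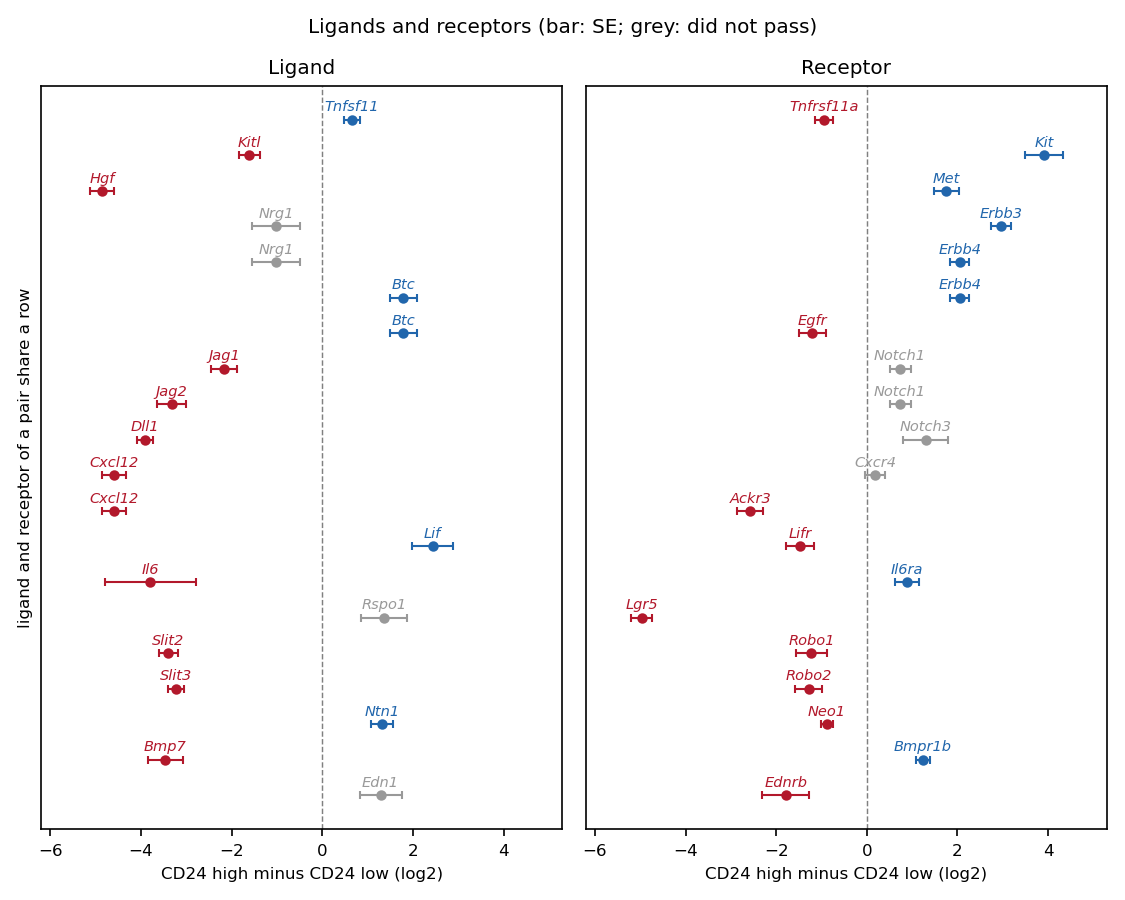
Difference CD24 high minus CD24 low (log2, horizontal axis) of the ligand (left) and the receptor (right) of 20 pairs in wild type, a pair on each row, with the SE of the fit as bar; red passed as higher in CD24 low, blue as higher in CD24 high, grey did not pass. Kitl and Hgf lie on the left at -1.61 and -4.86 and their receptors Kit and Met on the right at 3.91 and 1.75.

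Axon guidance and neural adhesion genes lay mostly on the CD24 low side. Of 59 measured members 26 passed as lower and 3 as higher in CD24 high cells, against 8.21% and 7.93% of all genes, with a median of -0.64. Sema6d, a transmembrane semaphorin, read 9.02, 9.46 and 9.48 in CD24 low cells and 5.0, 5.36 and 4.86 in CD24 high cells (-4.25, SE 0.20, adjusted p = 2.96e-07). Sema5a differed by -3.08, and the secreted Slit2 and Slit3 by -3.40 and -3.24, Slit2 being dim in CD24 high cells. Their receptors Robo1 and Robo2 lay on the same side (-1.22 and -1.28), as did the plexins Plxnd1, Plxna4, Plxna1 and Plxna2 (-2.06 to -1.29) and the Eph receptors Ephb1 (-2.78) and Epha4 (-2.14). Leaving out 1 array ended the calls of Robo1 without array 1, 9, 10, 13 or 14 (adjusted p 0.0665 to 0.125), of Robo2 without array 1 (adjusted p = 0.0551) and of Plxna2 without array 2, 9, 10 or 13 (adjusted p 0.0614 to 0.0879). On the luminal side stood Ntn1 (1.32, SE 0.25), Sema4d (1.07, SE 0.18) and Ephb3 (0.64, adjusted p = 0.0289). Ephb3 lost its call without array 1, 10 or 14 (adjusted p 0.0897 to 0.104).

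The labels name no pregnancy or lactation, and milk genes gave a signal in part. Of 25 measured milk and secretion genes 12 passed as higher and 1 as lower in CD24 high cells, against 7.93% and 8.21% of all genes. Their median was 1.31. Csn3 (kappa-casein) read 9.12, 8.58 and 6.98 in CD24 low cells and 10.67, 11.42 and 11.17 in CD24 high cells (2.86, SE 0.48, adjusted p = 0.00178), and its CD24 low arrays ranged over 2.14. The caseins Csn1s1 (2.48, adjusted p = 0.18) and Csn2 (1.46, adjusted p = 0.377) did not pass, and Wap, a whey protein of lactation, differed by -0.11. The membrane mucins were more even: Muc20, Muc4, Muc15 and Muc1 were higher by 3.43, 3.12, 2.81 and 2.63. Muc16, a further membrane mucin and not on the list, read 3.79, 4.52 and 3.79 and 6.61, 8.22 and 7.70, dim in CD24 low cells, and its call ended without array 10 or 13 (adjusted p 0.0504 to 0.0572). Lmo4, a cofactor of mammary differentiation, was lower in CD24 high cells by 1.04 and lost its call without array 1, 2, 13 or 14 (adjusted p 0.055 to 0.0761).

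Mucosal defence genes passed in 11 of 36 cases. Of 36 measured 9 passed as higher in CD24 high cells, against 7.93% of all genes, and 2 as lower, and the list median of 0.03 was next to the 0.02 of all genes. Ltf (lactoferrin), the iron-binding antimicrobial of milk, read 7.52, 7.11 and 5.48 in CD24 low cells and 9.84, 11.51 and 11.38 in CD24 high cells. Dmbt1, a mucosal scavenger protein, read 4.87, 6.96 and 6.18 and 9.20, 10.74 and 11.11, with array 2 the lowest of the CD24 high arrays in both. Cd14, the co-receptor for bacterial lipopolysaccharide, differed by 2.67 (SE 0.60), and Tlr4, the receptor it serves, by 1.82. Defb1, a defensin, differed by 3.40 with a wide error (SE 0.99, adjusted p = 0.038) and did not pass without array 1, 2, 9, 13 or 14 (adjusted p 0.0706 to 0.136). The 2 members lower in CD24 high cells (8.21% of all genes were) were Slpi and Chil1. Slpi, a secreted inhibitor of leukocyte proteases, read 11.90, 11.81 and 11.69 in CD24 low cells and 7.59, 8.22 and 8.39 in CD24 high cells (-3.73, SE 0.25, adjusted p = 2.32e-06). Chil1, a chitinase-like secreted protein, read 11.88, 11.87 and 11.18 and 7.98, 10.21 and 9.08 (-2.55, SE 0.57). Pigr, which carries antibody into milk, did not pass (0.68, adjusted p = 0.157) and was dim in CD24 low cells.

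Of 38 measured transport genes 19 passed as higher and 4 as lower in CD24 high cells, against 7.93% and 8.21% of all genes. The median over all 38 was 0.72. The genes named here were chosen with their values in view. Slc12a2, the sodium, potassium and chloride cotransporter, read 9.59, 10.27 and 9.87 in CD24 low cells and 11.59, 11.87 and 12.01 in CD24 high cells (1.92, SE 0.21, adjusted p = 0.000112). Scnn1a, a subunit of the epithelial sodium channel, differed by 3.28 (SE 0.41), Atp6v1b1, of the proton pump, by 3.42, the carbonic anhydrase Car2 by 2.96 and the water channel Aqp5 by 2.35. Slc5a5, the iodide transporter and not on the list, read 6.30, 7.20 and 6.53 and 9.60, 10.04 and 10.71 (3.44, SE 0.60). The 4 genes lower in CD24 high cells were amino acid carriers and a zinc carrier. Slc1a5, which takes up glutamine, read 9.90, 9.86 and 10.02 in CD24 low cells and 7.68, 8.27 and 8.12 in CD24 high cells (-1.90, SE 0.21, adjusted p = 8.72e-05). Slc38a2 (-0.99), Slc7a5 (-1.70) and the zinc carrier Slc39a8 (-1.74) were on its side, and Slc7a5 lost its call without array 1, 2, 10 or 13 (adjusted p 0.0594 to 0.101). The glucose transporter Slc2a1 did not pass (-0.49).

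Of 32 measured aldehyde and xenobiotic enzymes 22 did not pass. In CD24 high cells 4 passed as higher and 6 as lower, against 7.93% and 8.21% of all genes (median -0.11). Without array 2 the count of higher members was 8, and with arrays 9 to 16 only it was 7. Aldh1a3, which makes retinoic acid and marks luminal progenitors, read 6.96, 6.16 and 5.60 in CD24 low cells and 10.14, 10.54 and 11.11 in CD24 high cells and had the largest difference of all genes that passed as higher there. Its relative Aldh1a1 went the other way, from 5.81, 6.49 and 5.13 to 4.46, 4.57 and 4.76 (-1.21, adjusted p = 0.0194), was dim in CD24 high cells, and lost its call without array 1, 2, 9 or 10 (adjusted p 0.0527 to 0.065). Aldh2, the mitochondrial enzyme, differed by -1.81 (SE 0.30). Cyp1b1, which hydroxylates estrogens and xenobiotics, read 9.68, 9.57 and 9.15 and 5.83, 6.86 and 6.61 (-3.03, SE 0.31, adjusted p = 5.8e-05). The glutathione transferases parted, Gsta4 at 2.12 and Gstm1 at -1.55, the second of which did not pass without array 9 (adjusted p = 0.0586).

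**Figure D5:**
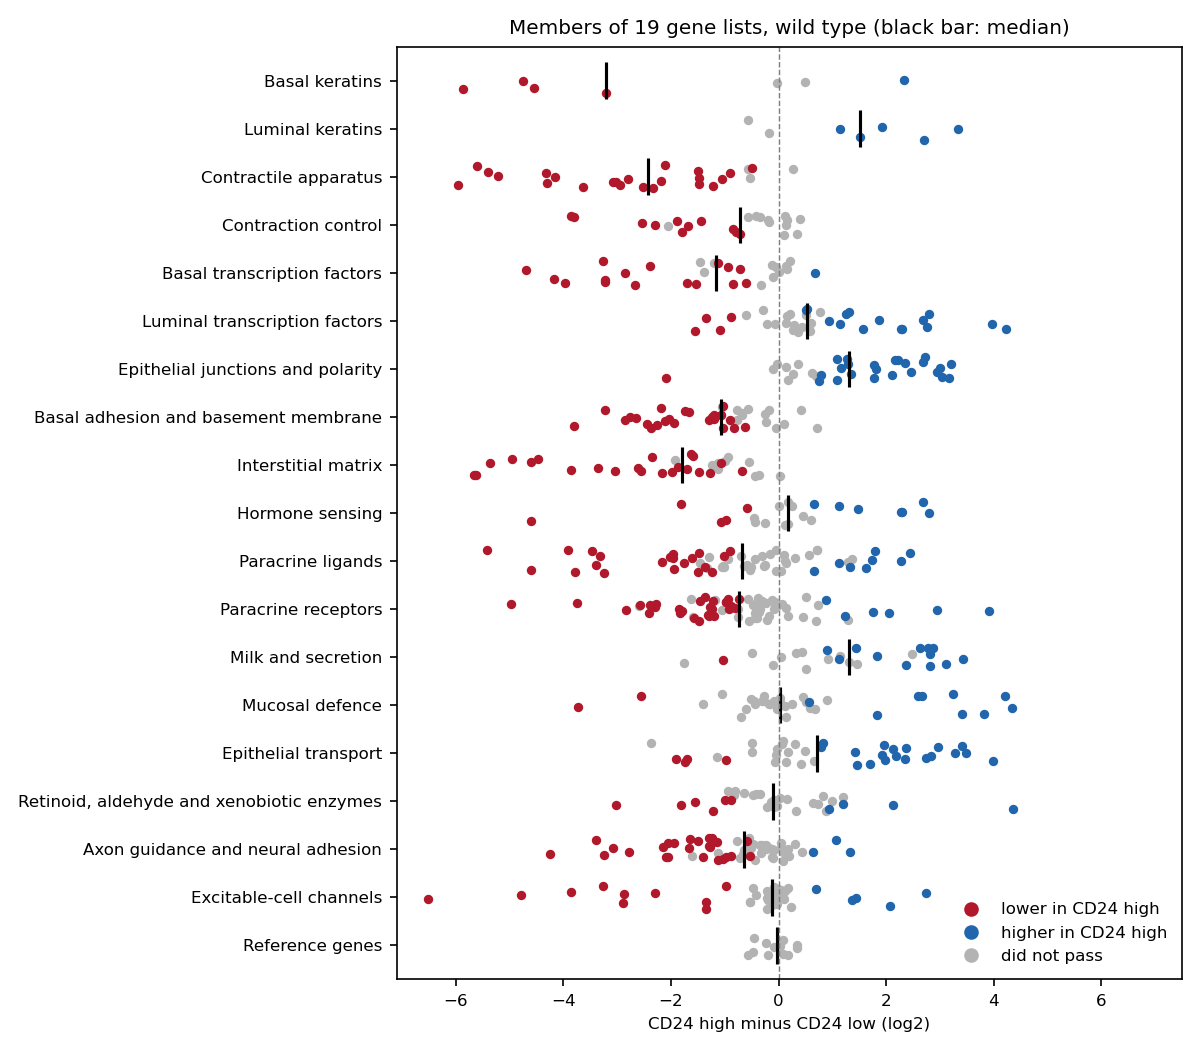
Difference CD24 high minus CD24 low (log2, horizontal axis) of every measured member of 19 gene lists in wild type, 1 point a gene, with the list median as a black bar; red passed as lower and blue as higher in CD24 high cells, grey did not pass. The contractile list lies almost wholly left of 0 (median -2.43), the junction list right of it (median 1.32), and the transport and defence lists reach to both sides.

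Among the 20 largest differences in each direction, several genes belong to none of the lists. On the CD24 high side, Cyp3a57, a cytochrome P450 of a family of similar genes, differed by 4.04 and was dim in CD24 low cells. Cytip, a regulator of cell adhesion best known from leukocytes, read 4.90, 5.18 and 4.84 in CD24 low cells and 8.06, 9.37 and 9.03 in CD24 high cells (3.85, SE 0.43) and was dim in CD24 low cells. Mboat1, a lysophospholipid acyltransferase, read 6.31, 6.68 and 6.38 and 9.75, 10.00 and 10.30, and Rhov, an atypical small GTPase, read 5.93, 5.47 and 4.91 and 8.83, 8.99 and 9.05. Both were tight within their groups (3.56, SE 0.24, and 3.52, SE 0.21). Fgb, the beta chain of fibrinogen, was the reverse: it read 6.92, 4.68 and 5.20 and 10.71, 7.89 and 9.70, a range of 2.82 within CD24 high cells and of 2.24 within CD24 low cells, with the higher reading of each fraction on arrays 1 and 2 (3.84, SE 0.70, adjusted p = 0.00322). Dkkl1 (3.71), Bex1 (3.68) and Ttc6 (3.43) stood beside them, the last 2 dim in CD24 low cells.

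On the CD24 low side, Antxr1, a collagen-binding membrane receptor, read 10.71, 11.05 and 10.68 in CD24 low cells and 5.68, 5.48 and 5.26 in CD24 high cells (-5.34, SE 0.24, adjusted p = 2.14e-07). Emb (embigin), a partner of lactate transporters, read 9.57, 9.40 and 9.75 and 4.04, 3.45 and 4.23, and Fstl1, a secreted glycoprotein, read 10.31, 10.10 and 9.76 and 5.02, 5.48 and 4.87. Lgr5, the R-spondin receptor of the receptor list, read 10.15, 10.49 and 10.57 and 5.72, 5.02 and 5.57, and Moxd1, a monooxygenase-like protein, read 9.81, 9.14 and 9.22 and 4.94, 4.24 and 4.29. None of these genes had an array near the other fraction, and Emb and Moxd1 were dim in CD24 high cells. C1s1, a complement protease, read 8.55, 8.78 and 9.75 and 3.84, 5.05 and 3.83, with array 13 the highest of its group. The list of 20 held matrix, adhesion and contractile genes (Igfbp3, Postn, Bgn, Col14a1, Cdh3, Cnn1, Myh11, Myl9 and Acta2). It also held channel, ligand and receptor genes (Scn7a, Cacna2d1, Cxcl14, Hgf and Lgr5) and the keratin gene Krt5. The 20 on the other side held defence, transport and enzyme genes, and also the transcription factors Ehf and Elf5, the receptor Kit and the desmosome gene Pkp2.

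Families defined by symbol alone were counted as well, and several share members with the lists. Over all genes 16.1% passed, 7.93% as higher and 8.21% as lower in CD24 high cells. Semaphorin genes (20 measured) passed in 40% of cases, 7 lower and 1 higher in CD24 high cells, with a median of -0.61. Collagen genes passed in 38.6% (16 lower and 1 higher of 44) and genes with the stem Arhg, which act on small GTPases, in 37.3% with both directions alike (10 higher and 12 lower of 59). Claudins passed only upwards (8 of 28, 28.6%), and solute carriers in both directions alike (39 higher and 40 lower of 364, 21.7%). At the other end were large ribosomal subunit genes (0 of 39), vomeronasal receptors (0 of 167) and olfactory receptors (2 of 1027, Olfr1465 and Olfr5). Of 43 genes with the stem Nduf, which build respiratory complex I, 1 passed while the family median was 0.34. Of 12 reference genes 0 passed by limma, from -0.56 (Tfrc) to 0.35 (Sdha). Actb read 13.04, 12.93 and 12.89 in CD24 low cells and 12.90, 12.88 and 12.86 in CD24 high cells, and Hprt, often used to normalise RT-PCR, read 9.39, 9.14 and 9.47 and 8.23, 9.02 and 9.31, with array 2 the lowest.

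The same contrast in the 6 Wnt4-deleted arrays, which the wild-type fit uses only for its spread, gave 3278 genes. Of the genes higher in CD24 high wild-type cells, 1572 of 1581 had the same sign there, and of those lower 1633 of 1637. Krt14 differed by -3.84 there against -4.54 in wild type, Oxtr by -3.38 against -3.80, Elf5 by 3.72 against 3.97 and Gata3 by 0.59 against 0.14. The exception on the basal keratin list kept its side, with Krt6a at 1.49. The difference between the genotypes in this contrast was tested as an interaction, and 0 genes passed by limma (273 at an unadjusted p under 0.05 of 19938). Levels of other cell types were raised in the same runs of title numbers in both genotypes: skeletal muscle markers averaged 6.30 on array 1 and 6.96 on array 3 and at most 5.41 elsewhere, and fibroblast markers 8.72 on array 9 and 8.17 on array 11. The genotypes are thus not shown to be independent of each other in this contrast. By runs of title numbers (1 to 4, 9 to 12 and 13 to 16), each of which holds 1 wild-type array of each fraction, 1578 of 1581 higher genes and 1637 of 1637 lower genes kept their sign in all 3. These genes were called on the same wild-type arrays, so this count follows largely from the call and is not a replication.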

How the data were processed

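Sorted mammary cells were profiled on 12 Affymetrix gene arrays, 3 in each of 4 groups, and groups were taken from the sample titles. Per the labels, RNA was extracted with Trizol, amplified with the Ovation Pico WTA V2 kit and labelled with the FL-Ovation biotin kit. The submitters' processing notes name RMA and Affymetrix Expression Console 1.1.2800. The table deposited by the authors holds RMA values on the log2 scale, a method that corrects background, equalises the arrays by quantiles and combines probes by median polish. The quantile step gives all arrays the same overall spread, and a shift shared by most genes of a fraction would not be seen. No column of the authors' own comparisons was used. No array repeated another, and precision is limited by the number of arrays.

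Of 35556 probesets, 21789 had 1 gene symbol and entered. Not used were 1621 with several symbols and 12146 that the gene table does not list. For the 999 genes with more than 1 probeset, the one with the highest mean over the 12 arrays was used, which gave 19938 genes. Symbols were checked against RefSeq and 0 needed an update. Differences were tested with lmFit and eBayes of limma 3.58.1 (R 4.3.3) on all 12 arrays with 1 mean per group (8 residual degrees of freedom, 11.05 after moderation), two-sided, with Benjamini-Hochberg adjustment over all genes and a threshold of 0.05. On simulated data (5 simulations, 19938 genes, 200 of them changed) recovery was 59.4% at a log2 change of 1 and 91.8% at a log2 change of 2, and false calls averaged 7.8. Far fewer genes were changed there than the 3218 that passed here, which alters the adjusted threshold. The simulated noise was independent between arrays and genes, without shared differences in cell mixture. These rates therefore do not carry over to the real comparison. Counts and figures were made in Python 3.11.15 with pandas 2.3.3 and matplotlib 3.10.9. Promoter sequences are from RefSeq, and the CArG box searched was CC, then 6 bases of A or T, then GG.

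The comparison, the 29 gene lists and the rules were chosen with earlier results of these data known. Named were the key genes of each list, up to 4 members per list and direction, and the 20 highest and 20 lowest differences whose arrays did not overlap, without predicted and small RNA genes. Families were taken by symbol stem with at least 20 genes. Further list members and the ligand and receptor pairs were chosen after their values were seen. Some list members were not analysed here. Alternatives concerned dim genes (left out by percentile or by the receptor bound), probesets (averaged per gene), scaling (arrays centred on their medians, or quantiles equalised again), the spread (trended and robust prior, or weights per array), the samples (the 6 wild-type arrays alone, or each wild-type array left out in turn), the runs of title numbers as a block (fixed or random), and the call (an adjusted p of 0.01, or a test against a 2-fold change). A fit on arrays 9 to 16 was added after seeing the data.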

Additional observations from a re-analysis of the deposited data

How the results depend on the processing

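The count of 3218 genes moved most with the way the spread was modelled and with the threshold. Array weights gave 5215 genes (2759 higher and 2456 lower in CD24 high cells), a threshold of 0.01 gave 1843 (813 and 1030), and a test against a 2-fold change gave 496 (161 and 335). Leaving out 1 wild-type array gave 2282 to 2986 genes, with 1044 to 1558 higher and 1238 to 1428 lower, and the fewest higher genes came without array 13. The other alternatives stayed between 3034 (intensity trend) and 3624 genes (fixed block). No named gene that passed changed its direction under any of these settings. Of 154 named genes that passed, 11 to 17 lost their call when 1 array was left out, 59 in the test against 2-fold, 25 at a threshold of 0.01 and 13 with arrays 9 to 16 only. The runs of title numbers are not said to mark an experiment. Across genes, deviations of the wild-type CD24 low and CD24 high array of a run correlated at -0.06, 0.11 and 0.06. A pairing of these fractions was thus not shown. CD24 low arrays of both genotypes in a run did share raised marker lists of other cell types, as given above. CD24 high arrays did so in part: endothelial markers averaged 6.14 on array 10 and 6.49 on array 12, and at most 5.65 on the other CD24 high arrays. With the run as a replicate block 3624 genes passed as a fixed and 3450 as a random effect, and 0 of the 154 calls were lost. The arrays have no depth, and the signal limits them instead: 171 higher and 281 lower genes are dim in the other fraction.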
